A study of Mus musculus with 6 samples.

Results

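The genes described here encode subunits of the transcription factor AP-1 (Fos, Fosl1, Fosl2, Jun, Junb, Jund and Atf3), the zinc finger transcription factor EGR1 (Egr1), and the immediate early products Ier2 and Ier3. They were named as a list of 10 gene symbols, and were found in a table of 14883 Entrez Gene numbers by matching each number to its mouse symbol. The table held 9 of the 10, and Fosl1 was not analysed here. All 9 passed the filter on low counts, and they were tested among 12377 genes. RNA had been sequenced from B16F10luc2 cells, a mouse melanoma line that carries a luciferase gene, grown on plates with a flexible bottom in serum-containing medium. In 3 samples the plate bottom was stretched cyclically for 24 h, with 15% elongation in both directions of the plane and 15 cycles per minute. In the other 3 samples the same plates stayed still (static). Both groups were the same line, and no sample was taken at an earlier time, so only the level at 24 h can be described.

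AP-1 is a dimer of basic leucine zipper proteins. Jun proteins can pair with one another, whereas Fos proteins need a partner such as a Jun protein, and the pair binds short DNA elements in the control regions of genes for growth, migration and invasion. Immediate early genes are switched on within minutes of a stimulus (growth factors, serum, stress or mechanical load) by factors that are already present in the cell, among them the serum response factor with its ternary complex partners and CREB. Many of their mRNAs are short-lived. EGR1 is induced through the same route and in turn induces its own corepressor, NAB2.

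Libraries held between 19469286 and 36351400 counts. The labelled line was checked by 7 melanocyte lineage markers, whose summed level was 19863 to 20454 CPM in stretched libraries and 22409.8 to 24790.4 CPM in static libraries (CPM, the usual depth-scaled count, here with TMM factors applied). Of 7 fibroblast markers 6 were in the table, with sums of 23.2 to 25.2 CPM in stretched and 25.1 to 30.4 CPM in static libraries. Of 7 immune markers 3 were in the table, with sums of 1.68 to 2.12 CPM in stretched and 1.90 to 2.50 CPM in static libraries. Of 7 endothelial and epithelial markers 2 were in the table, with sums of 0.815 to 1.36 CPM in stretched and 0.736 to 0.805 CPM in static libraries. Their part in the results was not tested. The labels do not say whether the 3 samples of a group were grown separately, so a p-value here reflects the spread among 3 samples that may be technical repeats.

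After 24 h of cyclic stretch, mRNA levels of 8 of the 9 tested genes were lower than in static culture, and none was higher. The stress-induced Atf3 fell 1.99-fold and Egr1 fell 1.89-fold. The AP-1 subunits Fosl2, Jund, Junb and Jun fell by 1.57-fold, 1.55-fold, 1.42-fold and 1.25-fold, and Ier3 and Ier2 by 1.22-fold and 1.18-fold. Fos was the gene that did not pass. Calls were made at a Benjamini-Hochberg adjusted p under 0.05 over all genes in edgeR's quasi-likelihood test, by which 50.9% of all tested genes were called, 25.9% lower under stretch and 24.9% higher. The median log2 fold change was -0.50 over the 9 genes and 0.00377 over all genes tested. The members and the related lists below were chosen with earlier results of these data known, so their shares are a description and not a test. In bulk RNA, fewer cells that express a gene and less of its mRNA per cell cannot be told apart.

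**Figure D1:**
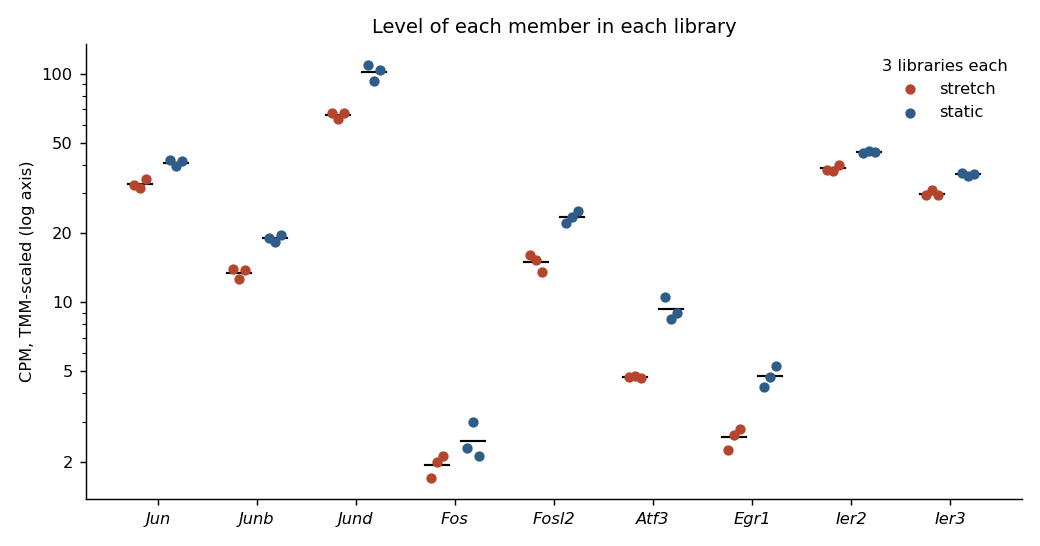
Level of the 9 genes in each library, in CPM on a log axis, with 3 stretched libraries (red, left) and 3 static libraries (blue, right) per gene and a black bar at each group's mean. In each of the 9 genes the stretched libraries lie below the static ones, though for Fos the nearest libraries are 2.110 CPM (stretched) and 2.114 CPM (static).

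In all 9 genes the highest stretched library lay below the lowest static library, a pattern seen in 29.4% of all tested genes, with the opposite pattern in 29%. Groups of 3 that do not overlap give p = 0.1 in an exact test of ranks, the lowest such groups can reach, so the calls rest on the spread that the model shares across genes.

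Among the Jun genes, Jund (Entrez Gene 16478; chromosome 8, 70697739 to 70700616 in GRCm38.p6), the subunit most cells express without a stimulus, had the lowest p. It had 67.2, 63.6 and 67.3 CPM in stretched replicates 1 to 3, against 109.8, 93.4 and 104 CPM in static replicates 1 to 3. The stretched libraries were close together, and the static ones were spread more widely, with replicate 2 the lowest. Over all tested genes static library pairs also differed more than stretched ones (chi-square per degree of freedom 3.35 to 7.64, against 1.88 to 2.29). The log2 fold change was -0.64 (SE 0.0521, adjusted p = 1.63e-07, edgeR).

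Junb (Entrez Gene 16477; chromosome 8, 84976909 to 84978748), a subunit that often opposes Jun, had 13.9, 12.6 and 13.8 CPM in stretched libraries, against 19.2, 18.3 and 19.6 CPM in static libraries. Its groups were well apart relative to their spread, and its log2 fold change was -0.50 (SE 0.0666, adjusted p = 2.04e-05, edgeR). Jun (Entrez Gene 16476; chromosome 4, 95049036 to 95052222), the classical partner of Fos and the end point of the JNK pathway, had 32.7, 31.6 and 34.6 CPM in stretched libraries, against 41.8, 39.4 and 41.4 CPM in static libraries. Here the gap was smaller but still exceeded the range of either group. The fitted log2 difference was -0.32 (SE 0.0494, adjusted p = 9.08e-05, edgeR).

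Among the Fos genes, Fosl2 (Entrez Gene 14284; chromosome 5, 32136472 to 32157840), which encodes Fra-2, had 16.0, 15.3 and 13.6 CPM in stretched libraries, against 22.3, 23.5 and 25.2 CPM in static libraries. All 3 static libraries were more than 6 CPM above the highest stretched one. Its log2 fold change was -0.65 (SE 0.0718, adjusted p = 3.51e-06, edgeR). Fos (Entrez Gene 14281; chromosome 12, 85473890 to 85477274), the prototype immediate early gene, was scarce, with 63, 44 and 44 counts in stretched libraries and 59, 56 and 63 counts in static libraries. Scaled for depth these were 1.69, 1.99 and 2.11 CPM in stretched libraries, against 2.29, 2.98 and 2.11 CPM in static libraries. Stretched replicate 3 and static replicate 3 nearly coincided, the static one higher only in the fourth digit, and static replicate 2 stood highest. The log2 fold change of Fos was -0.34 with a 95% interval of -0.72 to 0.04 (adjusted p = 0.121, edgeR), so at this depth neither no change nor a fall as large as that of Fosl2 lay outside the interval. Without static replicate 2 it was -0.21 (adjusted p = 0.369, edgeR).

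Atf3 (Entrez Gene 11910; chromosome 1, 191170296 to 191183333), a basic leucine zipper factor induced by many stresses that represses as a dimer with itself, had 4.70, 4.75 and 4.65 CPM in stretched libraries, against 10.5, 8.41 and 8.99 CPM in static libraries. Its stretched libraries were nearly equal and its static ones varied more, and the log2 fold change was -0.99 (SE 0.104, adjusted p = 2.08e-06, edgeR). Egr1 (Entrez Gene 13653; chromosome 18, 34861207 to 34864956), which couples growth factor and injury signals to gene expression, had 84, 58 and 58 counts in stretched libraries, against 110, 88 and 156 counts in static libraries. Scaled for depth these were 2.26, 2.63 and 2.78 CPM in stretched libraries, against 4.26, 4.68 and 5.23 CPM in static libraries. The groups were well separated although the gene was scarce. The fitted log2 difference was -0.92 (SE 0.137, adjusted p = 5.77e-05, edgeR).

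The other immediate early products among the 9 genes had the smallest differences. Ier2 (Entrez Gene 15936; chromosome 8, 84661331 to 84662852), a nuclear protein gene induced by growth factors, had 38.1, 37.5 and 40.0 CPM in stretched libraries, against 45.1, 45.8 and 45.7 CPM in static libraries. Ier3 (Entrez Gene 15937; chromosome 17, 35821713 to 35822911), which encodes the cell survival regulator IEX-1, had 29.4, 30.9 and 29.3 CPM in stretched libraries, against 37.0, 35.5 and 36.4 CPM in static libraries. In both the gap between groups exceeded the range within either group. The log2 fold changes were -0.24 for Ier2 (SE 0.0442, adjusted p = 0.000338, edgeR) and -0.28 for Ier3 (SE 0.0479, adjusted p = 0.000182, edgeR). In the RefSeq table of GRCm38.p6 the span of no other gene overlapped that of any of the 9.

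**Figure D2:**
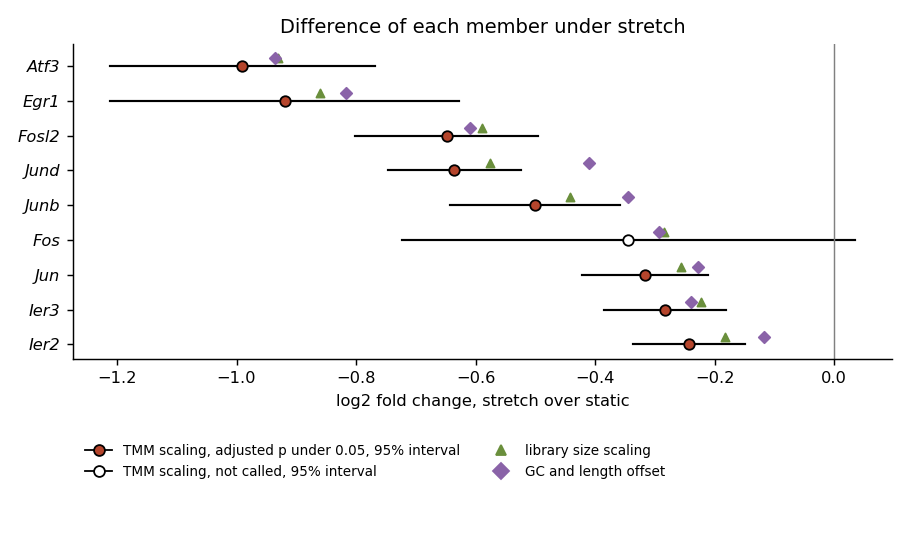
Log2 fold change of each gene, stretch over static, with its 95% interval from edgeR (circles, red where the adjusted p is under 0.05), and the same value with scaling by library size alone (triangles) or with an offset for GC content and length (diamonds). All values lie below 0, with the circles from -0.99 for Atf3 to -0.24 for Ier2, and only the interval of Fos reaches past 0.

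Ordered by log2 fold change from the lowest, the genes were Atf3, Egr1, Fosl2, Jund, Junb, Fos, Jun, Ier3 and Ier2. The 95% intervals were -1.21 to -0.77 for Atf3, -1.21 to -0.63 for Egr1, -0.80 to -0.49 for Fosl2, -0.75 to -0.52 for Jund and -0.64 to -0.36 for Junb. For the called genes nearer to 0 they were -0.42 to -0.21 for Jun, -0.39 to -0.18 for Ier3 and -0.34 to -0.15 for Ier2. Every gene's interval overlapped that of its neighbours in the order, so neighbours are not ranked by these data. The differences between genes were not tested. Against a null of a 1.2-fold difference (edgeR's glmTreat), 5 of the 9 genes stayed lower (Atf3, Egr1, Fosl2, Jund and Junb), against 7.38% of all tested genes lower and 5.49% higher. Jun, Ier3 and Ier2 did not pass that test (adjusted p = 0.25, 0.545 and 1, glmTreat).

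The upstream sequences of Atf3, Jun and Fos are shown because these genes had the largest fall, a small called fall and no call. These sequences were chosen with the matches known, and each held a short element of basic leucine zipper factors, as did that of Junb. They are the 250 bases before the RefSeq start in GRCm38.p6, 5′ to 3′ on the gene's strand, for Atf3 chr1:191183334-191183583 (minus strand), for Jun chr4:95052223-95052472 (minus strand) and for Fos chr12:85473640-85473889 (plus strand). Capitals mark matches to the elements searched on both strands.
Atf3: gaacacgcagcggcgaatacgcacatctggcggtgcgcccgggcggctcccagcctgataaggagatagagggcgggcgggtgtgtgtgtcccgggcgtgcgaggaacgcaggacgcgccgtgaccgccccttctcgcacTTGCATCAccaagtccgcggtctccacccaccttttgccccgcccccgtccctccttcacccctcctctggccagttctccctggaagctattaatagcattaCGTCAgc
Jun: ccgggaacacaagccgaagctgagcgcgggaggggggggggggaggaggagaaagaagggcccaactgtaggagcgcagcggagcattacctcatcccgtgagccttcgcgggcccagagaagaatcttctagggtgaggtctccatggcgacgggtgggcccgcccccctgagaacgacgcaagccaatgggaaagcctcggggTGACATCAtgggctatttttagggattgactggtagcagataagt
Fos: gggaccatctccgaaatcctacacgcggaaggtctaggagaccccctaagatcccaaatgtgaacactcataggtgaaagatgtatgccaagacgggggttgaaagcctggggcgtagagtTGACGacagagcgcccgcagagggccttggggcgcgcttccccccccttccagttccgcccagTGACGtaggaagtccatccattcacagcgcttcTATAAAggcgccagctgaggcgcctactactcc

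The search covered the AP-1 element TGANTCA, the cyclic AMP response element TGACGTCA and its shorter form TGACG, the Jun promoter type TGACATCA, the composite C/EBP and ATF element TGATGNAA, the EGR element GCGNGGGCG, the TATA box TATAAA and the CArG box of the serum response factor. The whole cyclic AMP element contains its shorter form. Positions are counted from the start, with -1 the last base before it. In Atf3 the composite element was read on the other strand as TTGCATCA at -110 to -103, and TGACG likewise as CGTCA at -7 to -3. Jun held TGACATCA at -45 to -38. Fos held TGACG at -129 to -125 and at -66 to -62, and a TATA box at -33 to -28. Of 32851 windows of this length in the table, 3.45% held the composite element, 2.93% held TGACATCA, 17.8% held TGACG and 12.4% held the TATA box. Windows were given for 7 of the 10 genes (Fos, Fosl2, Jun, Junb, Jund, Atf3 and Ier3), so Egr1 and Ier2 were not searched. Bases further upstream than 250 were not searched either, so an absent match holds for these windows only. Fosl2 held an EGR element (in 4.70% of windows), Junb held TGACG, and these letters were not in the windows of Jund and Ier3. No window of the 7 held TGANTCA, TGACGTCA or a CArG box, which were in 6.75%, 1.55% and 1.47% of all windows. A match is a description of letters and not evidence of binding.

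Levels were compared between genes as CPM per kilobase of the longest transcript. On this scale Jund was the most abundant of the 9, with 39.6 ± 1.27 in stretched and 61.4 ± 5.00 in static libraries (mean ± SD, n = 3 each). Ier3 followed with 26.4 ± 0.784 in stretched and 32.1 ± 0.645 in static libraries, and then Ier2 with 25.3 ± 0.870 in stretched and 29.9 ± 0.242 in static libraries. These neighbours lay within their spread of each other in stretched libraries and further apart in static ones. Jun had 10.3 ± 0.479 in stretched and 12.8 ± 0.403 in static libraries, and Junb 7.43 ± 0.410 in stretched and 10.5 ± 0.371 in static libraries. The 4 scarcest genes were all under 5 on this scale. Atf3 had 2.37 ± 0.0257 in stretched and 4.69 ± 0.544 in static libraries, and Fosl2 2.29 ± 0.190 in stretched and 3.62 ± 0.221 in static libraries, so that Atf3 stood apart from Fosl2 in static libraries only. Fos had 0.916 ± 0.102 in stretched and 1.17 ± 0.218 in static libraries, and Egr1 0.570 ± 0.0600 in stretched and 1.05 ± 0.109 in static libraries. Levels differed widely among the 9 genes, with Jund at the 88.9th percentile of all tested genes with a known length and Egr1 at the 12.6th percentile. The longest transcript of Egr1 had 4484 bases, more than its RefSeq span given above, so its place on this scale depends on that length.

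Jund made up most of the Jun family mRNA in every library, with a smaller share in stretched ones. Jund made up 69.2%, 69.3% and 68.6% of the summed CPM per kilobase of Jun, Junb and Jund in stretched libraries, against 73.5%, 71.3% and 72.3% in static libraries. Jun made up 17.6% to 18.4% in stretched libraries, against 14.6% to 15.8% in static libraries. For both genes the groups did not overlap, with Jund's share lower by 3.37 percentage points and Jun's higher by 2.85 points under stretch. An exact two-sided permutation test gives p = 0.1 for each, the lowest it can give with 3 libraries a group. The shares were not adjusted for GC content, which was 67.1% for Jund and 55.5% for Jun. With the GC and length offset the log2 fold changes of Jund and Jun lay closer, at -0.41 and -0.23, against -0.64 and -0.32 without it. The share of Junb was 13.0% ± 0.280 in stretched and 12.4% ± 0.546 in static libraries (SD, n = 3 each), a difference within the spread.

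**Figure D3:**
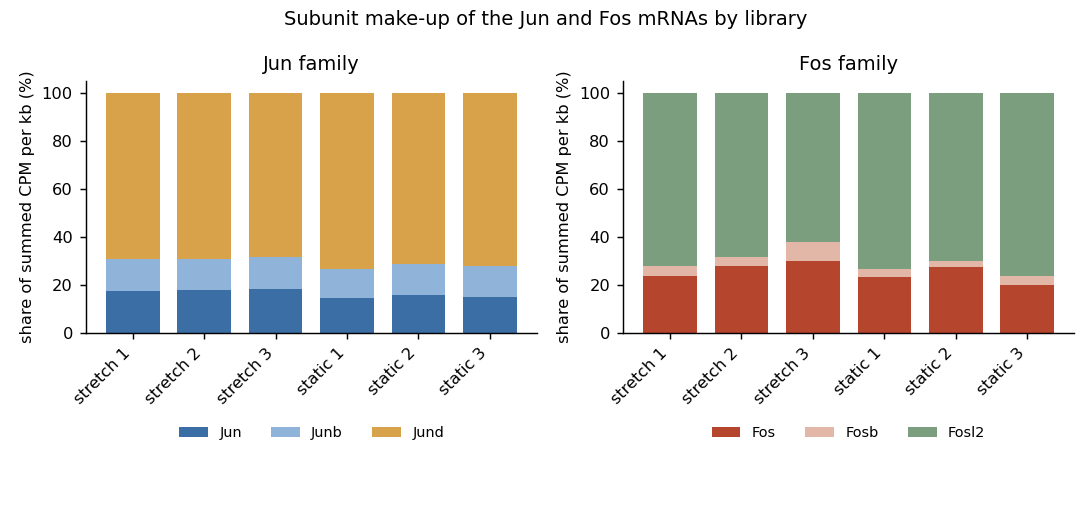
Share of each subunit in the summed CPM per kilobase of the Jun genes (left) and of Fos, Fosb and Fosl2 (right), for 3 stretched and 3 static libraries. Jund is the largest part of every Jun bar and smaller in the stretched ones (68.6% to 69.3%) than in the static ones (71.3% to 73.5%), while the shares of Fos and Fosl2 overlap between groups.

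The Fos family sum held Fosl2 as its main part. Fosl2 made up 67.5% ± 5.12 of Fos, Fosb and Fosl2 in stretched and 73.4% ± 3.09 in static libraries (SD, n = 3 each). Fos made up 27.0% ± 3.14 in stretched and 23.6% ± 3.85 in static libraries, and for both genes the groups overlapped. The scarce Fosb made up 4.38%, 3.85% and 8.29% in stretched libraries, against 3.09%, 2.20% and 3.70% in static libraries, groups that did not overlap but lay close. These shares leave out Fosl1. The sum over the Jun genes was 57.3 ± 2.08 CPM per kilobase in stretched and 84.7 ± 5.68 in static libraries. The sum over the Fos genes was 3.40 ± 0.0288 in stretched and 4.93 ± 0.261 in static libraries. Jun transcripts thus exceeded those of the 3 Fos genes 16.9 ± 0.724 times in stretched and 17.2 ± 2.01 times in static libraries, values that did not differ beyond their spread.

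Among other AP-1 subunits and small Maf partners, 5 of 9 tested genes fell and none rose (55.6% lower, against 25.9% of all tested genes). Jdp2, which encodes a repressor that dimerises with Jun, had the largest fall of the list, to 35.8 ± 1.76 CPM in stretched cells, against 58.8 ± 1.11 CPM in static cells (log2 fold change -0.72, adjusted p = 1.42e-08, edgeR). Its libraries ran from 34.6 to 37.8 CPM in stretched and from 57.95 to 60.02 CPM in static cells, well apart. Mafg and Mafk, small Maf genes whose proteins lack a transactivation domain, fell 1.29-fold and 1.18-fold, the large Maf gene Maf 1.2-fold, and Atf7, a relative of Atf2, 1.14-fold. Against a 1.2-fold difference Jdp2 stayed lower (adjusted p = 5.2e-07, glmTreat), while Mafg, Mafk, Maf and Atf7 did not pass.

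Atf2, a stress kinase target that pairs with Jun, did not pass (log2 fold change -0.10, adjusted p = 0.0515, edgeR), but did so when GC content and length entered as an offset (-0.20, adjusted p = 0.000625), after thinning (adjusted p = 0.0261) and without static replicate 2 (adjusted p = 0.0342). Maff (-0.17), Batf3 (0.50) and Fosb (0.23) did not pass either, and without stretched replicate 3 the value of Fosb was -0.10. Fosb was scarce, at 0.706 ± 0.304 CPM in stretched and 0.558 ± 0.140 CPM in static cells. Batf was below the count filter, at up to 0.101 CPM in any library. Batf2 and Egr4 were not analysed here.

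Of the EGR genes only Egr1 passed the filter on low counts. Egr2 had 0.134, 0.136 and 0.0480 CPM in stretched libraries, against 0, 0 and 0.0335 CPM in static libraries. Egr3 had 0.161, 0.317 and 0.192 CPM in stretched libraries, against 0, 0.0532 and 0.0671 CPM in static libraries. For Egr2 and Egr3 the stretched libraries thus lay above the static ones, opposite to Egr1, but at levels below the count filter. Nab1 and Nab2, the genes of the corepressors that bind EGR proteins, both fell, though neither passed against a 1.2-fold difference (glmTreat). Nab1 had 86.9 ± 2.27 CPM in stretched and 100.5 ± 3.17 CPM in static cells, and Nab2 had 21.9 ± 1.42 CPM in stretched and 25.9 ± 2.2 CPM in static cells. The call for Nab1 (log2 fold change -0.21, adjusted p = 0.000396, edgeR) was kept by the GC and length offset, whereas that for Nab2 (-0.24, adjusted p = 0.00863) was lost with it (-0.11, adjusted p = 0.137), with library size scaling (-0.18, adjusted p = 0.0515), without stretched replicate 2 (-0.20, adjusted p = 0.0501) and without static replicate 1 (-0.19, adjusted p = 0.0582).

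In a wider list of immediate early genes the directions were mixed. Of 33 tested genes 13 fell (39.4%) and 6 rose (18.2%), against 25.9% lower and 24.9% higher over all tested genes. The list's median was -0.11 on the log2 scale. The largest fall was that of Cebpb, a basic leucine zipper gene of stress and inflammation, at 8.01 ± 0.437 CPM in stretched and 21.5 ± 1.89 CPM in static cells, or 2.70-fold lower (adjusted p = 4.04e-09, edgeR). Btg1, an antiproliferative gene, fell 1.71-fold and Rhob, a GTPase gene of actin and endosome control, 1.41-fold. Klf4 and Klf6, zinc finger factor genes, fell 1.88-fold and 1.33-fold, and Zfp36, whose protein destroys AU-rich mRNAs, 1.38-fold.

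The genes that rose in this list were Myc, Nr4a3, Klf10, Nfkbiz, Sik1 and Nr4a1. All but Myc, like Klf4, Klf6 and Zfp36 above, were named after their values were seen. Myc, the growth-promoting factor, had 83.9, 77.3 and 81.6 CPM in stretched libraries, against 53.6, 49.1 and 57.2 CPM in static libraries, or 1.51-fold higher (adjusted p = 2.91e-07, edgeR). Nr4a3, an orphan nuclear receptor gene induced through cyclic AMP, had 32.3, 31.2 and 36.1 CPM in stretched libraries, against 19.1, 21.2 and 17.3 CPM in static libraries, which was 1.74-fold higher (adjusted p = 5.66e-07, edgeR). For both genes the groups lay far apart. Klf10, a TGF-beta-induced factor, rose 1.47-fold, Nfkbiz, a nuclear IkB protein gene, 1.45-fold, Sik1, a kinase gene induced by cyclic AMP, 1.42-fold, and Nr4a1, a relative of Nr4a3, 1.2-fold.

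**Figure D4:**
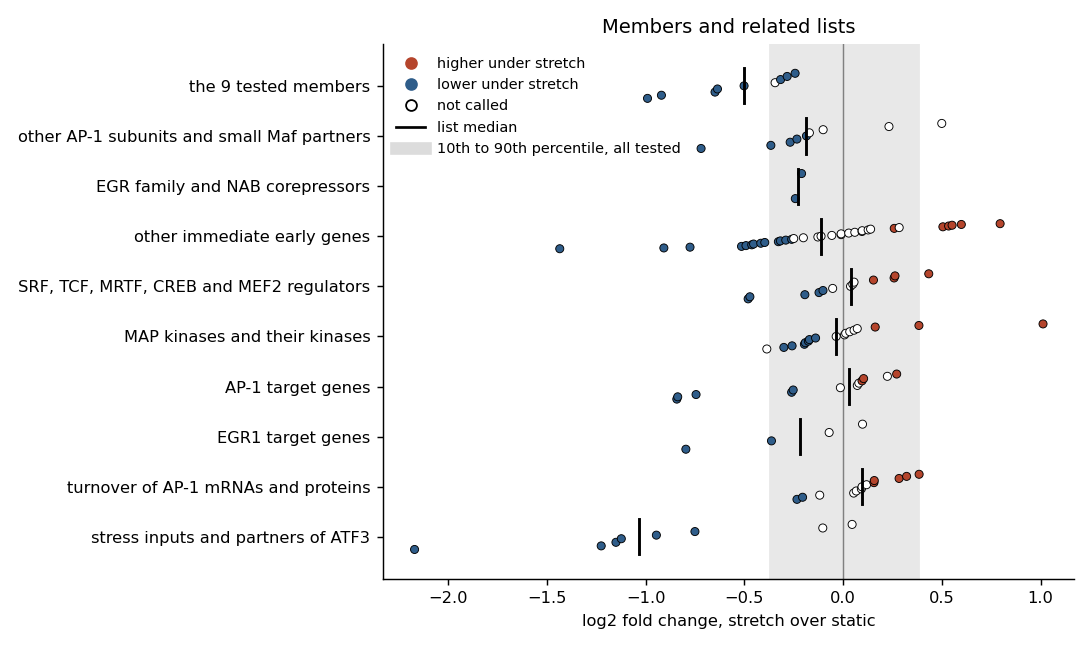
Log2 fold changes, stretch over static, of the 9 tested genes and of the related lists, each point a gene (red higher, blue lower, white not called by edgeR) and each black bar a list median; the grey band spans the 10th to 90th percentile of all 12377 tested genes, -0.372 to 0.384. The 9 genes lie wholly below 0 with a median of -0.50, while the wider immediate early list runs from -1.43 to 0.79 around a median of -0.11.

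Of 13 genes of the serum response factor, ternary complex, MRTF, CREB and MEF2 group, which includes inducers of immediate early genes, 5 fell (38.5%) and 4 rose (30.8%), against 25.9% lower and 24.9% higher over all tested genes. The median of these 13 genes was 0.04 (log2). Elk1, a ternary complex factor, fell to 26.2 ± 1.58 CPM in stretched cells, against 36.5 ± 1.85 CPM in static cells (adjusted p = 8.28e-06, edgeR), while its relative Elk4, named after its values were seen, rose 1.35-fold. Crem, a CREB relative, fell 1.40-fold. Srf, the serum response factor itself, fell 1.14-fold and Creb1 rose 1.2-fold, and neither call was kept under the GC and length offset (-0.00685 for Srf with adjusted p = 0.912, and 0.08 for Creb1 with adjusted p = 0.0875).

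Of 17 MAP kinases and kinases above and below them 7 fell (41.2%) and 3 rose (17.6%), with the same 25.9% lower and 24.9% higher over all tested genes. Their median was -0.03 (log2). Map2k6, a kinase that activates p38, had 15.9 ± 0.842 CPM in stretched and 7.87 ± 0.344 CPM in static cells, 2.02-fold higher (adjusted p = 8.06e-08, edgeR). Mapk8, the gene of the Jun kinase JNK1, named after its values were seen, rose 1.30-fold. Mapk3, which encodes ERK1, fell 1.23-fold, and Map2k3, another activator of p38, 1.2-fold. Map2k2, an activator of ERK, fell 1.15-fold, a call that did not hold under that offset (log2 fold change -0.07, adjusted p = 0.149).

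Of 12 tested genes known as AP-1 targets, 5 fell (41.7%) and 3 rose (25%), around a median of 0.03 (log2). Over all tested genes 25.9% were lower and 24.9% higher, so the share that rose was near that of all genes. Plaur, the urokinase receptor gene of invading cells, had 13.1, 12.8 and 11.2 CPM in stretched libraries, against 24.99, 18.9 and 22.5 CPM in static libraries, or 1.79-fold lower (adjusted p = 3.01e-06, edgeR). Vegfa, an angiogenic factor gene, fell 1.68-fold and Itga5, the fibronectin receptor subunit, 1.19-fold. Timp1, a protease inhibitor gene, rose 1.21-fold, and its adjusted p of 0.0201 became 0.101 in DESeq2 and 0.0551, 0.0637 and 0.0633 without stretched replicate 1, stretched replicate 3 and static replicate 3. Of 4 tested EGR1 targets 2 fell and none rose, too few genes to set against the 25.9% lower and 24.9% higher of all genes. Tgfb1, the transforming growth factor gene, fell to 7.33 ± 1.34 CPM in stretched cells, against 12.7 ± 1.80 CPM in static cells (adjusted p = 6.67e-05, edgeR). Pdgfa, a platelet-derived growth factor gene, fell 1.29-fold, a call lost in DESeq2 (adjusted p = 0.0527), after thinning to the smallest library (0.0654) and without stretched replicate 1 (0.0524) or 2 (0.0596). Itga5, Timp1 and Pdgfa did not pass against a 1.2-fold difference (adjusted p = 0.951, 0.736 and 0.316, glmTreat).

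Of 13 genes for turnover of AP-1 mRNAs and proteins 5 rose (38.5%) and 2 fell (15.4%), whereas 24.9% of all tested genes were higher and 25.9% lower. The list had a median of 0.10 (log2). Tia1, an RNA-binding protein gene of stress granules, rose 1.31-fold, Xrn1, the cytoplasmic RNA exonuclease gene, 1.25-fold and Hnrnpd, whose protein AUF1 binds AU-rich elements, 1.22-fold. With the GC and length offset Xrn1 and Hnrnpd kept their calls at log2 fold changes of 0.15 and 0.16, against 0.32 and 0.28 without it. Cop1, the gene of a ubiquitin ligase that marks Jun for destruction, fell 1.15-fold (log2 fold change -0.21, and -0.40 with the offset). Against a 1.2-fold difference Tia1 stayed higher (adjusted p = 0.00853, glmTreat), while Xrn1, Hnrnpd and Cop1 did not pass.

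A list of 8 tested genes, mostly of the ATF4 branch, held inputs and partners of Atf3 in stress responses and targets beside it. Of these, 6 fell (75%) and none rose, around a median of -1.03 (log2), where 25.9% of all tested genes were lower and 24.9% higher. Atf4, the transcription factor gene that induces Atf3 when translation initiation is blocked, had 357 ± 4.53 CPM in stretched and 599.8 ± 20.1 CPM in static cells, 1.68-fold lower (adjusted p = 6.42e-10, edgeR). Its target and partner gene Ddit3 had 39.6 ± 1.27 CPM in stretched and 92.6 ± 7.44 CPM in static cells, 2.34-fold lower. Both were named after their values were seen, and the list itself was written with earlier results of these data known. Trib3, Sesn2 and Chac1, further targets of this branch, fell 4.50-fold, 2.22-fold and 2.18-fold.

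By the root mean square difference of centred log2 CPM over the 6 libraries, the genes with the pattern closest to that of Jund were Ypel5 (0.0313), Camsap3 (0.0431), Mid1ip1 (0.0436), Cdc42ep1 (0.0477) and Slc1a5 (0.0493), among named genes with a mean of at least 5 CPM. Mid1ip1 was also close to Jund in level, with 67.5 ± 0.360 CPM in stretched and 105 ± 5.08 CPM in static cells.

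GC content moved with the fold change over all genes and was high in the 9 genes. Among 12283 tested genes with a known sequence in 10 equal bins of GC content of the longest transcript, the median log2 fold change was 0.13 in the lowest bin and -0.13 in the highest, and 9.93% and 42.1% of genes were called lower there. The 9 genes had 51.9% (Fos) to 67.1% (Jund) GC and stood in the 4 highest bins. Within their own bins 1.14% of genes had a log2 fold change as low as that of Atf3, 1.87% as low as Egr1, 4.40% as low as Fosl2 and 5.94% as low as Jund. For the others the share was 10.4% for Junb, 15.1% for Fos, 19.9% for Ier3, 21.1% for Jun and 32.8% for Ier2.

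With an offset for GC content and length the same 8 genes stayed lower, against 24.9% of all tested genes lower and 22.9% higher under that offset. They also stayed lower with scaling by library size alone, by which 19.4% of all tested genes were lower and 33.3% higher. Under the GC and length offset the log2 fold change of Jund was -0.41 (adjusted p = 1.6e-06), against -0.64 without it, and that of Ier2 was -0.12 (adjusted p = 0.0362), against -0.24. Those of Atf3 and Egr1 were -0.94 and -0.82 with the offset.

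**Figure D5:**
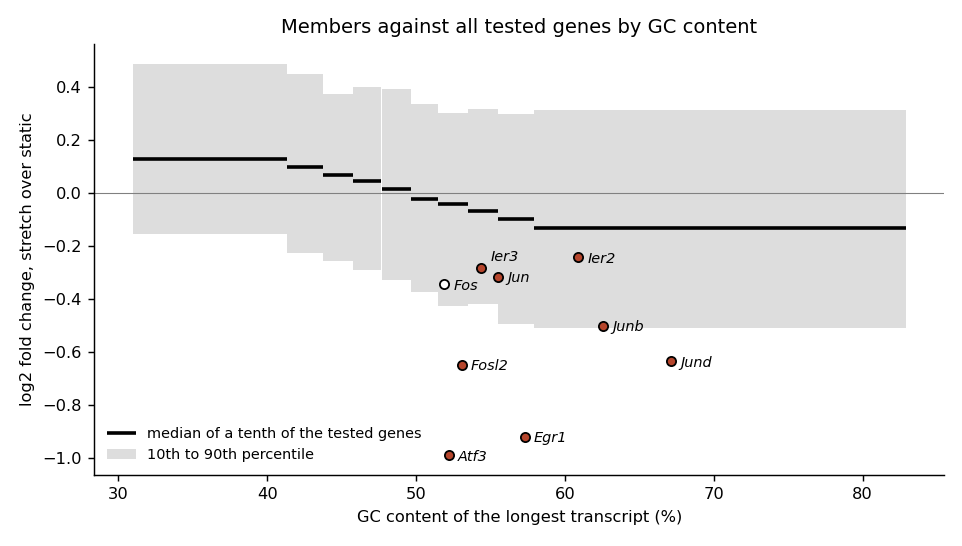
Log2 fold change, stretch over static, against GC content of the longest transcript, with black lines at the median and grey bands from the 10th to the 90th percentile of each of 10 equal bins of tested genes, and points for the 9 genes (red called lower, white not called). The bin medians run from 0.13 to -0.13 with rising GC, and Atf3, Egr1, Fosl2 and Jund lie below the band of their bin, at -0.99, -0.92, -0.65 and -0.64.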

How the data were processed

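RNA-seq of 3 stretched and 3 static samples, grouped by the condition in the labels, was analysed from the authors' deposited table of estimated counts per gene, whole numbers without scaling across libraries. The submitters' processing notes name Salmon 1.4.0 and the genome builds GRCm38 and mm10. Trimming, the index and strand are not given in these notes. If strand was not used, reads of overlapping genes on opposite strands cannot be told apart. Every row summed to at least 10. Symbols came from RefSeq GRCm38.p6 (14875 of 14883 numbers; rows without a symbol held at most 0.0825% of counts and stayed in the fit). Length and GC content came from the longest GENCODE M21 transcript, known for 99.2% of the tested genes. The members and lists were chosen with earlier results of these data known.

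In edgeR 4.0.16 (R 4.3.3), filterByExpr with its minimum count of 10 kept 12377 genes and dropped 2506. TMM factors were 1.02 in each stretched library and 0.966 to 0.993 in static ones. Rounded counts were fitted by quasi-likelihood on group only (4 residual degrees of freedom) and tested two-sided, with Benjamini-Hochberg adjustment over all genes. Intervals are 95% intervals of the model. Simulated counts with known changes were used to test the scripts. Named genes were the 9 genes, all genes of the AP-1 partner and EGR lists, the 3 called genes of lowest p in each other list's main direction and 1 in the other, and the 5 genes closest to the called member of lowest p. A further 12 genes of the lists were named after their values were seen, and 1 gene is not reported here. Alternatives were RLE, upper quartile and library size scaling, no filter, 5 CPM in 3 libraries, DESeq2 1.42.0, limma-voom (limma 3.58.1), glmTreat, the replicate block, thinning to the smallest library, an offset from natural splines (5 degrees of freedom) on GC content and log2 length, and each library left out.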

Additional observations from a re-analysis of the deposited data

How the results depend on the processing

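All 9 genes had a log2 fold change below 0 under every alternative that tested them, and the number called lower stayed at 8 except with a filter of 5 CPM in 3 libraries, which removed Fos and Egr1 (7 of 7 called), and against 1.2-fold, where 5 were called. Against 1.2-fold 1592 of all tested genes were called, against 6298 by the main test. The number of all genes called ran from 5153 to 6331 with 1 library left out, and the members called were 8 each time. Deviations from group means correlated by -0.0118, 0.005 and -0.077 between same-numbered samples. No shared deviation was thus seen, which cannot show whether same-numbered samples were handled together. With the replicate block 8 members and 5967 genes were called. With library size as the sole scaling 4117 genes were higher and 2401 lower, so 63.2% of calls were higher, against 49.0% with TMM, and the median log2 fold change of all genes was 0.0636. Over 151 repeats for the 9 genes 3 calls were lost, those of Jun, Ier2 and Ier3 against 1.2-fold. Over 897 repeats for the other 53 named genes 35 calls were lost, 3 were gained and 1 value reversed (Fosb without stretch replicate 3, -0.0959; at most 0.454 with another library left out). Named genes outside the 9 that lost their call against 1.2-fold were Atf7, Maf, Mafg, Mafk, Nab1, Nab2, Srf, Creb1, Map2k3, Mapk3 and Map2k2. Calls of Itga5, Timp1, Pdgfa, Hnrnpd, Xrn1, Cop1, Nr4a1, Zfp36 and Mapk8 were lost there too. Without division by length, the share of Jun among Jun genes was 4.08 percentage points higher under stretch. With 1 library left out that difference ran from 2.60 to 3.15, that of Junb from 0.208 to 0.737, of Jund from -3.89 to -2.81, of Fos from 1.51 to 5.35, of Fosb from 1.12 to 3.34 and of Fosl2 from -8.16 to -3.11. Depth limits Fos, Egr1, Egr2, Egr3 and Fosb most.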
